A study of Homo sapiens with 8 samples.

Results

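The genes described here are those of the citric acid cycle and of pyruvate entry into it: the mitochondrial pyruvate carrier, the pyruvate dehydrogenase complex with its kinases and phosphatases, pyruvate carboxylase, the enzymes of the cycle and the malic enzymes. A list of 36 gene symbols defined the members, and 33 of them had a transcript cluster (the probe set of 1 gene on this array) annotated with that symbol alone, out of 18417 genes measured in this way. SDHB, FH and PDP2 were not analysed here. The study had 4 groups of 2 arrays. All came from 786-O, a human renal cell carcinoma line without functional VHL: the untransfected cells (VHL-) and cells transfected with a vector for VHL overexpression (VHL+), each kept for 24 h under normoxia or under hypoxia (1% O2 in the methods). The VHL+ cells were stable transfectants and the VHL- cells on these arrays carried no vector, so that effects of VHL and of transfection or selection cannot be told apart.

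The citric acid cycle oxidises acetyl-CoA to carbon dioxide inside mitochondria and passes the electrons to the respiratory chain. Pyruvate from glycolysis enters through the mitochondrial pyruvate carrier and is turned into acetyl-CoA by pyruvate dehydrogenase, which is switched off by the PDK kinases and switched on by the PDP phosphatases. The VHL protein recognises the oxygen-regulated HIF alpha subunits for a ubiquitin ligase and so leads to their degradation, and PDK1 is a well-known HIF target in other cells.

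The samples fitted their labels for VHL status and cell type. The oxygen label was not checked here with marker genes. VHL read 8.24 and 8.43 in VHL- cells under normoxia, 8.23 and 8.51 under hypoxia, 8.85 and 8.86 in VHL+ cells under normoxia, then 9.08 and 9.16 under hypoxia (log2 signal, as are all levels below). It was thus higher on all 4 VHL+ arrays, with log2 fold changes under normoxia of 0.52 (SE 0.14, adjusted p = 0.0398) and under hypoxia of 0.75 (SE 0.14, adjusted p = 0.00211). Of 8 renal markers named, 6 were measured and all 6 (PAX8, PAX2, KRT8, KRT18, VIM and CDH6) lay above the array median on every array, while the 6 measured markers of other cell types (PTPRC, CD3E, CD14, PECAM1, CDH5 and ALB) lay below it on every array. Replicate arrays correlated at r = 0.991 to 0.994 across clusters, which are not independent replicates. Array medians ran from 6.60 (VHL- hypoxia, replicate 1) to 6.91 (VHL+ hypoxia, replicate 1). Because of this the median of all clusters was 0.16 higher in VHL+ than in VHL- cells under hypoxia and 0.04 lower under normoxia (log2 fold change -0.04), and calls are given also after quantile normalisation, which sets both medians to 0.00. The precision of every value below is limited by the number of arrays.

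Promoters are shown for the kinases PDK1, PDK2 and PDK3 and for IDH3G, since the kinases differed among themselves in the comparisons below and PDK2 and IDH3G were higher in VHL+ cells under both oxygen conditions. The sequences are the 250 bases before the transcription start in RefSeq (GRCh38.p14), written 5′ to 3′ along the gene. They lie at chr2:172555840-172556089 (PDK1, plus strand), chr17:50095101-50095350 (PDK2, plus strand), chrX:24465036-24465285 (PDK3, plus strand) and chrX:153794376-153794625 (IDH3G, minus strand). Capitals mark ACGTG or GCGTG, the common forms of the HIF core motif, on either strand. PDK1 had 2 windows and PDK2 had 3, and the window with most matches is printed.

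PDK1: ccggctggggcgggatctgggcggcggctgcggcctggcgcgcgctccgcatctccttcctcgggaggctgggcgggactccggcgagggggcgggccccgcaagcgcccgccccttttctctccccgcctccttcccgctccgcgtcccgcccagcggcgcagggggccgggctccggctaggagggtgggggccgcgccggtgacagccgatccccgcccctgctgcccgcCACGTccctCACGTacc
PDK2: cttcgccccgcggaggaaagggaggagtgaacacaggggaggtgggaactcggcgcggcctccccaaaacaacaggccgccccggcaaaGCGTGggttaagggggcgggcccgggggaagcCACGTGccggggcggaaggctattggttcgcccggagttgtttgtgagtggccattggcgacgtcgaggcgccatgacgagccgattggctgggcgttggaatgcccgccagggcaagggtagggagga
PDK3: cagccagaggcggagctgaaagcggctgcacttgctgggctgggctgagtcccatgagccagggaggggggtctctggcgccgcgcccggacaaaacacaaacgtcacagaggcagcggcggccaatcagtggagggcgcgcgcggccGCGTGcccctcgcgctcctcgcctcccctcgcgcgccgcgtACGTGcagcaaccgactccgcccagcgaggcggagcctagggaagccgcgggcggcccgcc
IDH3G: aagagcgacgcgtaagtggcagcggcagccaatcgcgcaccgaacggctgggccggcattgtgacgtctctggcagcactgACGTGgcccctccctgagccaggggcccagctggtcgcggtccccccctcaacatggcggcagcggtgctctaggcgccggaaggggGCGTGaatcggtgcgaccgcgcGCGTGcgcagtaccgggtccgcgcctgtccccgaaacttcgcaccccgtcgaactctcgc

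The PDK1 window held ACGTG at 2 positions, centred 6 and 15 bases before the start. In PDK2 the palindrome CACGTG was counted on both strands as 2 overlapping matches, beside 1 GCGTG. PDK3 held 1 match of each form, and IDH3G 1 ACGTG and 2 GCGTG. The windows of IDH2 and DLST, members also higher in VHL+ cells, are not printed. IDH2 held 0 ACGTG and 1 GCGTG, and DLST held 0 of either form. Windows were found for 30 of the 33 measured members. Of these 30, 11 (36.7%) held ACGTG, against 21.7% of all 27305 genes with a window. These 27305 genes are those of RefSeq and not only those read on the array. A gene was counted if any of its windows matched, so that the number of windows also enters the share. GCGTG was found in 60.0% of members and 36.2% of all genes, and either form in 70.0% and 47.4%. Of the 11 members called higher with VHL below, 7 (63.6%) held either form. AAGGTCA, the half-site of oestrogen-related receptors, was found in SUCLA2 alone (3.33% of members, 4.22% of all genes). These matches describe the letters of a short window and not the binding of a factor.

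In VHL+ cells, some genes at several steps between pyruvate and succinate were called higher than in VHL- cells. Other subunits at these steps were not called, and several of the calls depended on single arrays, as given below. The 3 malic enzymes had negative fold changes over both oxygen conditions, of which 1 was called on the deposited values. Over both oxygen conditions, 11 of 33 members were called higher (33.3%) and 1 lower (3.03%), where 10.6% of all clusters were called higher and 3.72% lower. Among genes at their brightest cluster, as the members are, the shares were 14.9% and 4.79%. The members had a median log2 fold change of 0.21 and all clusters one of 0.06. Under hypoxia alone, 11 members were called higher (33.3%) and 0 lower, against 10.3% and 1.31% of all clusters and 14.3% and 1.72% of genes. Under normoxia alone, 2 members were called higher (6.06%) and 0 lower, against 2.07% and 2.69% of all clusters and 3.17% and 3.40% of genes. The unadjusted p of limma's test was under 0.05 for 11 of 33 members under normoxia and for 19 under hypoxia. Of all 33297 clusters, 4525 passed this cut under normoxia and 7994 under hypoxia.

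**Figure D1:**
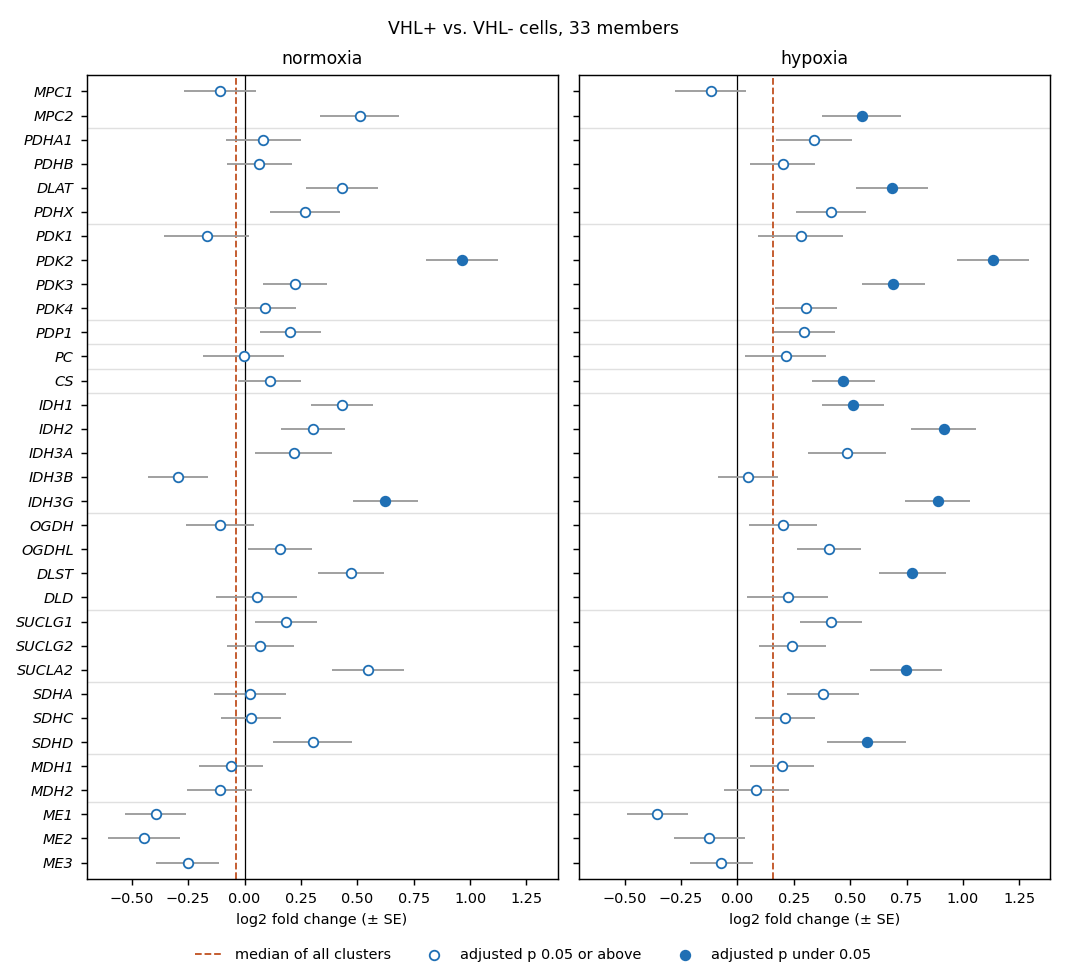
Log2 fold change of VHL+ over VHL- cells (x axis, with SE) for 33 members (y axis, ordered by role) under normoxia and under hypoxia; filled points passed an adjusted p of 0.05 and the dashed line is the median of all clusters. PDK2 and IDH3G are filled in both panels, 11 members are filled under hypoxia, and the 3 malic enzymes lie to the left of 0 in both.

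After quantile normalisation, 9 members were called higher and 3 lower over both oxygen conditions, against 8.40% and 7.60% of all clusters and 11.9% and 9.45% of genes. Under hypoxia the count fell to 5 higher and 1 lower, against 2.76% and 2.74% of clusters and 4.19% and 3.62% of genes. Under normoxia it was 3 higher and 1 lower, against 2.70% and 2.72% of clusters and 4.03% and 3.59% of genes. The members with a positive change under hypoxia went from 29 to 20 of 33, and their median from 0.34 to 0.14.

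**Figure D2:**
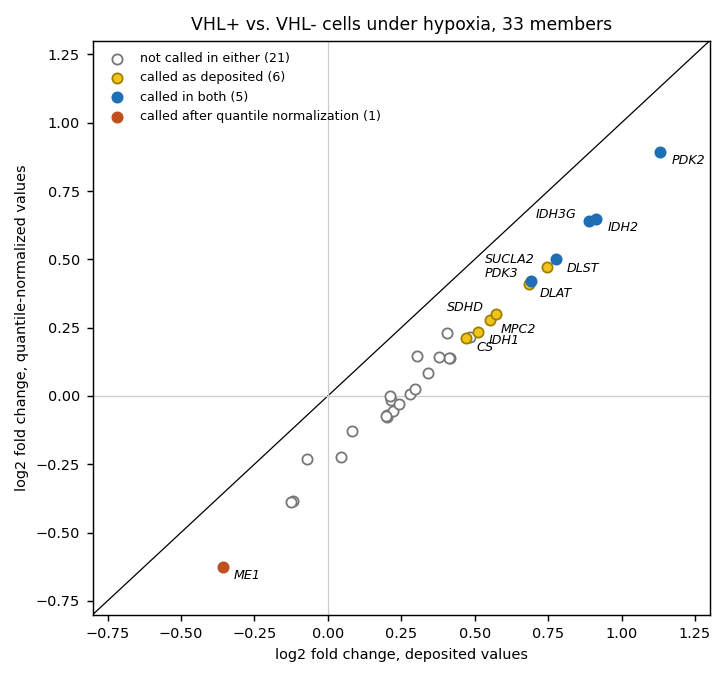
Log2 fold change of VHL+ over VHL- cells under hypoxia for 33 members, from the deposited values (x axis) and after quantile normalisation (y axis); the line marks equal values. Every member lies below the line; PDK2, PDK3, IDH2, IDH3G and DLST were called on both scales, 6 further members on the deposited values alone and ME1 after quantile normalisation alone.

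The pyruvate carrier is a complex of MPC1 and MPC2. MPC2 read 9.33 and 9.55 in VHL- cells under normoxia, 9.23 and 9.83 under hypoxia, 9.88 and 10.02 in VHL+ cells under normoxia, then 10.22 and 9.95 under hypoxia. All 4 VHL+ arrays lay above all 4 VHL- arrays, although the closest pair differed by little. MPC2 was higher by 0.53 (SE 0.12, adjusted p = 0.00266) over both oxygen conditions, and this call was kept after quantile normalisation (0.39, adjusted p = 0.0381). The rise of 0.55 under hypoxia (adjusted p = 0.0481) ran from 0.25 to 0.85 with single arrays left out, and after quantile normalisation it was 0.28 (adjusted p = 0.378) and the VHL- and VHL+ arrays overlapped. MPC1, its partner, had log2 fold changes of -0.11 under normoxia and -0.12 under hypoxia and was not called.

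In the pyruvate dehydrogenase complex, the acetyltransferase subunit and its binding protein were higher, while both subunits of the decarboxylase were not called. DLAT, the acetyltransferase core, read 8.91 and 8.59 in VHL- cells under normoxia, 8.62 and 8.35 under hypoxia, 9.00 and 9.37 in VHL+ cells under normoxia, then 9.18 and 9.15 under hypoxia. The VHL- and VHL+ arrays did not overlap, and the rise over both conditions was 0.56 (SE 0.12, adjusted p = 0.00110; 0.41 with adjusted p = 0.0473 after quantile normalisation). PDHX, which binds dihydrolipoamide dehydrogenase to the core, read 9.00 and 8.90 in VHL- cells under normoxia, 8.84 and 8.89 under hypoxia, 8.97 and 9.47 in VHL+ cells under normoxia, then 9.28 and 9.29 under hypoxia. One VHL+ array lay within the VHL- range, and its rise of 0.34 (SE 0.11, adjusted p = 0.0380) was lost after quantile normalisation (adjusted p = 0.117). It was also lost with any 1 array left out other than replicate 1 of either group under normoxia (adjusted p up to 0.317). PDHA1 and PDHB, the decarboxylase subunits, had changes between 0.07 and 0.34.

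The 4 kinases of pyruvate dehydrogenase did not move alike. PDK2 read 7.08 and 7.36 in VHL- cells under normoxia, 6.97 and 7.44 under hypoxia, 8.23 and 8.13 in VHL+ cells under normoxia, then 8.28 and 8.39 under hypoxia. No VHL+ array came near the VHL- range, and PDK2 had the largest fold change of all members, 1.95-fold under normoxia (log2 0.96, SE 0.16, adjusted p = 0.00107), and it was 2.19-fold higher under hypoxia (log2 1.13, SE 0.16, adjusted p = 0.000167). Over both conditions it was higher by 1.05 (SE 0.11, adjusted p = 2.14e-07; 0.95 with adjusted p = 0.00124 after quantile normalisation). PDK3 read 8.31 and 8.31 in VHL- cells under normoxia, 8.03 and 8.26 under hypoxia, 8.42 and 8.65 in VHL+ cells under normoxia, then 8.84 and 8.83 under hypoxia. PDK3 was higher over both conditions by 0.46 (SE 0.11, adjusted p = 0.00572). Its rise was called under hypoxia (0.69, SE 0.14, adjusted p = 0.00355) and not under normoxia (0.22, adjusted p = 0.627), and the difference between the 2 effects did not pass the test of the interaction (0.47, adjusted p = 0.651). PDK1, in contrast, overlapped between VHL- and VHL+ cells: 8.52 and 8.86 under normoxia and 8.30 and 8.89 under hypoxia without VHL, 8.30 and 8.75 under normoxia and 8.90 and 8.85 under hypoxia with VHL. Neither its fold change under normoxia (-0.17, SE 0.19, adjusted p = 0.989) nor that under hypoxia (0.28, SE 0.19, adjusted p = 0.389) was called, but the latter was called higher when replicate 2 of the VHL- hypoxia group was left out. PDK4, whose cluster lay below the array median on every array, ran between 6.23 and 6.50 without VHL (6.47 and 6.50 under normoxia, 6.23 and 6.39 under hypoxia) and between 6.46 and 6.69 with it (6.46 and 6.69, then 6.65 and 6.58). It was not called in any comparison. PDP1, the phosphatase measured, had changes of 0.20 and 0.30 under normoxia and hypoxia, neither called.

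**Figure D3:**
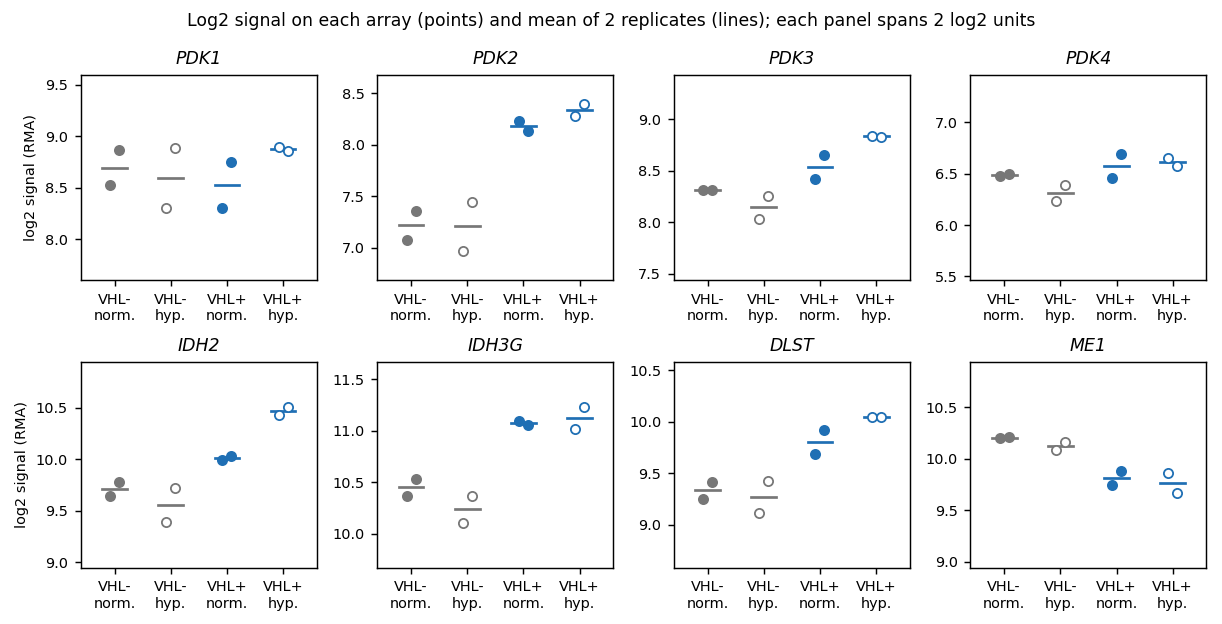
Log2 signal (y axis) of 8 members on each array (points; filled under normoxia, open under hypoxia) and the mean of 2 replicates (lines) in VHL- (grey) and VHL+ (blue) cells; every panel spans 2 log2 units. PDK2, PDK3, IDH2, IDH3G and DLST lie higher on all 4 VHL+ arrays and ME1 lower, while PDK1 and PDK4 overlap.

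Pyruvate carboxylase (PC), which makes oxaloacetate from pyruvate, ran from 7.36 to 8.07 over the 8 arrays and was not called. Citrate synthase (CS) condenses oxaloacetate with acetyl-CoA. It read 10.51 and 10.60 in VHL- cells under normoxia, 10.25 and 10.46 under hypoxia, 10.56 and 10.77 in VHL+ cells under normoxia, then 10.79 and 10.86 under hypoxia. CS was called higher under hypoxia alone (0.47, SE 0.14, adjusted p = 0.0349), and neither this call after quantile normalisation nor the change over both conditions (0.29, adjusted p = 0.0821) passed.

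The isocitrate dehydrogenases held 3 of the called genes. IDH3G, the regulatory gamma subunit of the NAD-dependent enzyme of the cycle, read 10.37 and 10.53 in VHL- cells under normoxia, 10.10 and 10.37 under hypoxia, 11.10 and 11.05 in VHL+ cells under normoxia, then 11.02 and 11.23 under hypoxia. There was no overlap, and IDH3G was 1.54-fold higher under normoxia (log2 0.62, SE 0.14, adjusted p = 0.0142) with a log2 fold change of 0.89 under hypoxia (SE 0.14, adjusted p = 0.000589). The catalytic alpha subunit gene IDH3A had changes of 0.22 and 0.48 and the beta subunit gene IDH3B of -0.30 and 0.05, and neither was called. The IDH3A changes under hypoxia (adjusted p = 0.0787) and over both conditions (0.35, adjusted p = 0.0550) lay close to the threshold, and both passed it with a trend and robust estimation, though not after quantile normalisation (adjusted p = 0.457 and 0.152). IDH2, the mitochondrial NADP-dependent enzyme, read 9.64 and 9.78 in VHL- cells under normoxia, 9.39 and 9.72 under hypoxia, 9.99 and 10.04 in VHL+ cells under normoxia, then 10.43 and 10.50 under hypoxia. All VHL+ arrays were above the VHL- arrays, and the 2 VHL+ arrays under hypoxia were the highest. Over both conditions IDH2 was higher by 0.61 (SE 0.12, adjusted p = 0.000718). It was called under hypoxia (0.91, SE 0.14, adjusted p = 0.000418) and not under normoxia (0.30, adjusted p = 0.360), with an interaction of 0.61 that did not pass (adjusted p = 0.651). IDH1, the cytosolic NADP-dependent enzyme, read 9.33 and 9.32 in VHL- cells under normoxia, 9.61 and 9.59 under hypoxia, 9.83 and 9.69 in VHL+ cells under normoxia, then 10.22 and 9.99 under hypoxia. It was higher over both conditions by 0.47 (SE 0.10, adjusted p = 0.00172), but by 0.33 with an adjusted p of 0.0563 after quantile normalisation.

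Of the oxoglutarate dehydrogenase complex, the succinyltransferase core DLST was higher. It read 9.24 and 9.42 in VHL- cells under normoxia, 9.12 and 9.42 under hypoxia, 9.69 and 9.92 in VHL+ cells under normoxia, then 10.05 and 10.04 under hypoxia. The groups were separate, and DLST was higher by 0.62 (SE 0.11, adjusted p = 0.000217) over both conditions and by 0.78 (SE 0.15, adjusted p = 0.00215) under hypoxia. OGDH, the decarboxylase, changed by -0.11 and 0.20, and DLD, the dehydrogenase subunit shared with pyruvate dehydrogenase, by 0.05 and 0.22, none called. OGDHL, a close relative of OGDH with a cluster near the array median, was separate between VHL+ and VHL- arrays but not called on the deposited values (0.28, adjusted p = 0.0859). It was called over both conditions after quantile normalisation (0.22, adjusted p = 0.0363) and after median centring.

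SUCLA2, the ADP-forming beta subunit of succinyl-CoA ligase, read 8.81 and 8.67 in VHL- cells under normoxia, 8.67 and 8.39 under hypoxia, 9.10 and 9.49 in VHL+ cells under normoxia, then 9.41 and 9.14 under hypoxia. Its rise over both conditions was 0.65 (SE 0.12, adjusted p = 0.000214; 0.50 with adjusted p = 0.0175 after quantile normalisation). SUCLG1, the alpha subunit, and SUCLG2, the GDP-forming beta subunit, had changes between 0.07 and 0.41 and were not called, although the SUCLG1 arrays were separate.

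Succinate dehydrogenase links the cycle to the respiratory chain. SDHA, its flavoprotein, read 11.36 and 10.88 in VHL- cells under normoxia, 11.26 and 11.01 under hypoxia, 11.09 and 11.20 in VHL+ cells under normoxia, then 11.54 and 11.49 under hypoxia. The VHL- replicates differed from each other by more than the groups did under normoxia, where the fold change was 0.02 (SE 0.16, adjusted p = 1.00), and the change of 0.38 (SE 0.16, adjusted p = 0.146) under hypoxia was not called. SDHD, a membrane anchor subunit, read 10.08 and 9.61 in VHL- cells under normoxia, 9.90 and 9.58 under hypoxia, 9.97 and 10.33 in VHL+ cells under normoxia, then 10.42 and 10.21 under hypoxia. The groups overlapped by 1 array, and SDHD was higher over both conditions by 0.44 (SE 0.12, adjusted p = 0.0151; 0.29 with adjusted p = 0.238 after quantile normalisation). The rise of 0.57 (SE 0.17, adjusted p = 0.0396) under hypoxia was lost after quantile normalisation and in the dimmer of the 2 SDHD clusters (0.41, adjusted p = 0.130). That dimmer cluster was not called over both conditions either (0.31, adjusted p = 0.0878). RefSeq lists 7 pseudogenes of SDHD, 5 of SDHC and 4 of SDHA, so that the gene of origin of these signals is uncertain. SDHC, the other anchor, changed by 0.03 and 0.21, not called.

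At the malate steps no gene was called higher. MDH1 and MDH2, the cytosolic and mitochondrial malate dehydrogenases, had changes between -0.11 and 0.20. The malic enzymes turn malate into pyruvate and sit in the cytosol (ME1) and in mitochondria (ME2 and ME3). ME1 read 10.20 and 10.21 in VHL- cells under normoxia, 10.08 and 10.16 under hypoxia, 9.74 and 9.88 in VHL+ cells under normoxia, then 9.86 and 9.67 under hypoxia. All VHL+ arrays were below the VHL- arrays, and ME1 fell by 0.37 (SE 0.10, adjusted p = 0.0115) over both conditions. After quantile normalisation the 3 malic enzymes were all called lower over both conditions. ME1 fell by 0.52 (adjusted p = 0.00167), ME2 fell by 0.42 (adjusted p = 0.00772) and ME3 fell by 0.22 (adjusted p = 0.0137). They were the 3 of 33 members called lower on that scale, where 9.45% of genes were, so that this count lay near the array-wide share. The ME3 cluster lay below the array median on 5 arrays. As deposited, ME1 was the 1 member called lower (3.03%, against 4.79% of genes). ME2 (-0.28, adjusted p = 0.122) and ME3 (-0.16, adjusted p = 0.453) were not called.

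All 4 VHL+ arrays lay above all 4 VHL- arrays in 11 members (33.3%), namely MPC2, DLAT, PDK2, PDK3, IDH1, IDH2, IDH3G, OGDHL, DLST, SUCLG1 and SUCLA2, where this held for 10.1% of clusters and 13.9% of genes. They lay below in 1 member, ME1 (3.03%, against 3.34% and 4.14%), and 21 members overlapped. After quantile normalisation 10 members were above and 3 below, against 10.0% and 9.12% of clusters. In PDK2, IDH1, IDH3G, DLST and SUCLA2 the call over both conditions was kept with any single array left out. Without replicate 1 of the VHL+ hypoxia group it was lost, beside PDHX above, in MPC2, DLAT, PDK3, IDH2 and SDHD, with adjusted p of 0.0940, 0.0501, 0.0878, 0.0584 and 0.209. SDHD lost it also without replicate 2 of the VHL- hypoxia group, and ME1 without that array or replicate 2 of the VHL+ hypoxia group (adjusted p up to 0.0711). The calls under 1 oxygen condition rested on the VHL+ hypoxia arrays: without replicate 1 of that group, 0 members were called under normoxia and 1 (IDH3G) under hypoxia, and without replicate 2, 0 and 0. These arrays enter the comparison under normoxia only through the variance that the groups share. For PDK2 under hypoxia, the change ran from 0.90 to 1.37 over all single omissions, with adjusted p up to 0.0632. Other arrays also ended single calls. Leaving out replicate 1 of VHL- normoxia ended that of IDH3G under normoxia. For the calls under hypoxia, replicate 1 of VHL- hypoxia ended those of MPC2, CS and IDH1. Replicate 2 of VHL- hypoxia ended those of IDH1 and SDHD, and either VHL- normoxia array that of CS.

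**Figure D4:**
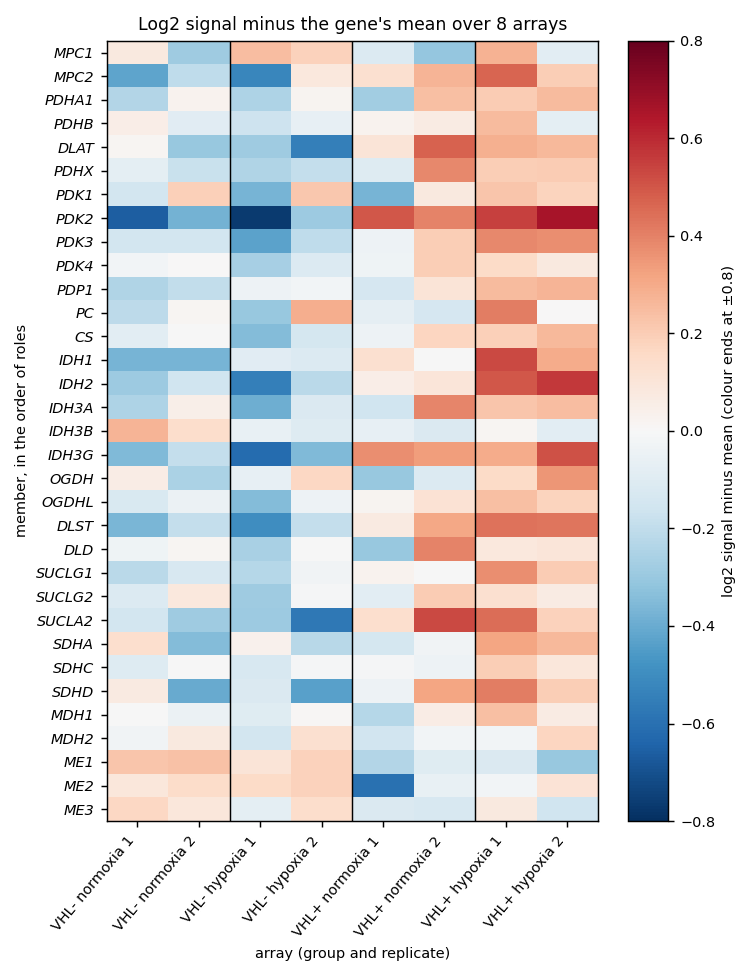
Log2 signal minus the gene's mean over 8 arrays (colour) for 33 members (rows, ordered by role) on each array (columns, by group and replicate). PDK2, IDH3G, IDH2 and DLST change colour between the 4 VHL- and the 4 VHL+ columns, and ME1 changes in the opposite direction.

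Hypoxia for 24 h gave no called change in any member. In VHL- cells 0 of 33 passed limma's test (1 at an unadjusted p under 0.05), and 9 had a positive change, a direction that depends on the scaling, with 19 positive after quantile normalisation. The median of the members was -0.08 and that of all clusters -0.12. In VHL+ cells the median of the members was 0.16 beside 0.09 for all clusters, and 30 of 33 members had a positive change. This too depended on the scaling, with 17 positive and a median of 0.02 after quantile normalisation. In these cells 0 members passed (6 at an unadjusted p under 0.05, as deposited). The 6 were PDK3, IDH1, IDH2, OGDH, SDHA and ME2, with changes between 0.30 and 0.46 and adjusted p of 0.438 and above. The array as a whole showed few changes: in VHL- cells 0.0210% of clusters (0.0326% of genes) were called higher and 0.0450% (0.0434% of genes) lower, and in VHL+ cells 0.150% (0.239%) and 0.00300% (0.00543%). After quantile normalisation 0 clusters were called in VHL- cells, and 0.00300% of clusters (0.00543% of genes) were called higher in VHL+ cells. Over both cell types 0 members passed (4 at an unadjusted p under 0.05: MPC1, PDP1, IDH1 and OGDH, by 0.23 to 0.31), against 0.111% of clusters (0.174% of genes) higher and 0.0601% (0.0597%) lower. Of all 33297 clusters, the unadjusted p of limma's test was under 0.05 for 1765 in VHL- cells and 2052 in VHL+ cells. Over both cell types it was so for 1649. PDK1 changed by -0.10 (SE 0.19, adjusted p = 0.840) in VHL- and by 0.35 (SE 0.19, adjusted p = 0.870) in VHL+ cells.

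**Figure D5:**
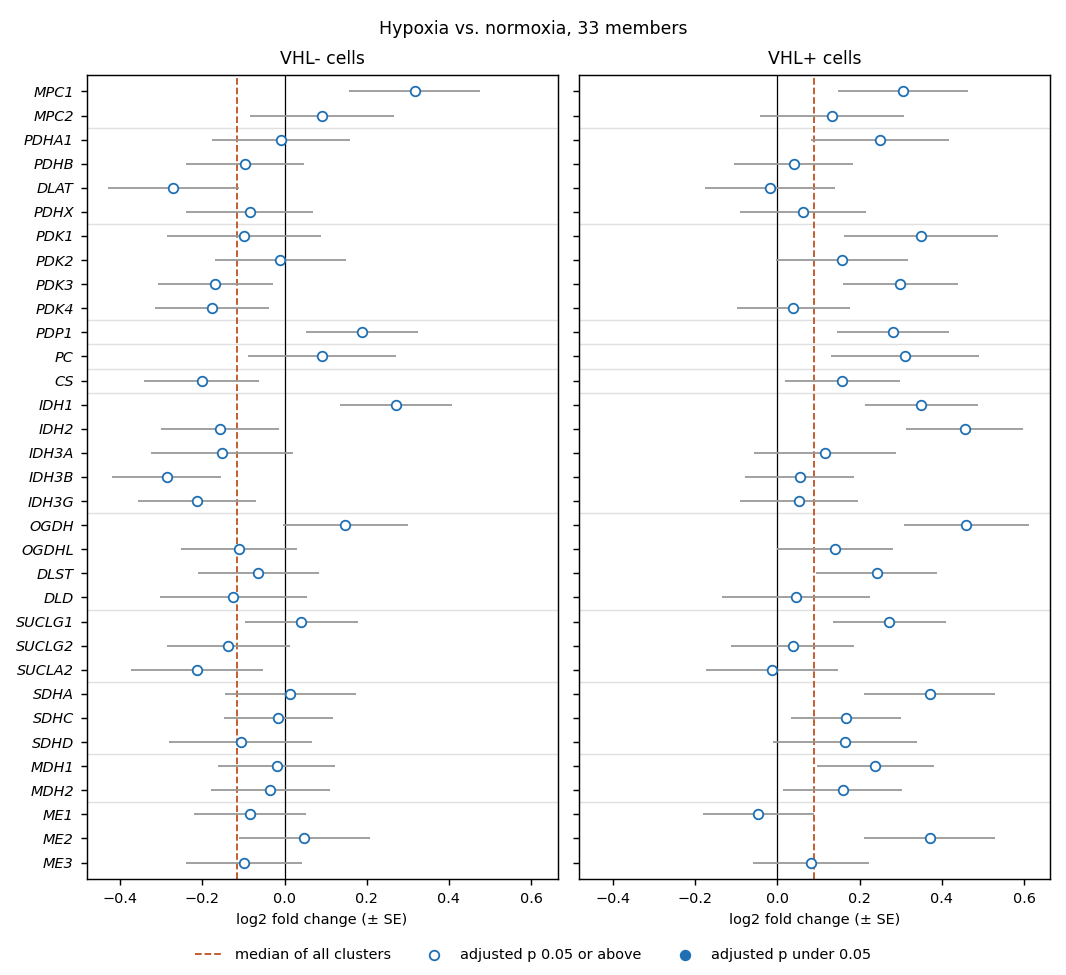
Log2 fold change of hypoxia over normoxia (x axis, with SE) for 33 members (y axis, ordered by role) in VHL- and in VHL+ cells; the dashed line is the median of all clusters. No point is filled, since no member passed an adjusted p of 0.05.

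The interaction asks whether the response to hypoxia differed with VHL. It was called for 0 members, against 0.00601% of clusters higher and 0 lower. The unadjusted p of limma's test was under 0.05 for 2 of 33 members (PDK3 by 0.47 and IDH2 by 0.61). Of all 33297 clusters, 1869 passed the same cut for the interaction. The members' median of 0.23 lay beside 0.21 for all clusters, and 32 of 33 members had a positive value, a direction that depended on the scaling, with 15 positive after quantile normalisation.

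Lists of neighbouring genes were read in the same way. The list of entry and exit reactions had 18 of 25 genes measured. Under normoxia 0 were called higher with VHL and 2 lower (11.1%, against 3.40% of genes): ACO1, the cytosolic aconitase that doubles as an iron regulatory protein, fell by 0.55 (SE 0.14, adjusted p = 0.0242), and ACLY, which splits exported citrate into acetyl-CoA and oxaloacetate, fell by 0.54 (SE 0.14, adjusted p = 0.0257). ACLY read 11.16 and 11.18 in VHL- cells under normoxia, 11.11 and 11.00 under hypoxia, 10.61 and 10.65 in VHL+ cells under normoxia, then 10.95 and 10.73 under hypoxia. Every VHL+ array was below every VHL- array in both genes. Under hypoxia 4 were called higher (22.2%, against 14.3% of genes): SLC25A11, the mitochondrial oxoglutarate carrier (0.70, adjusted p = 0.00961), NNT, the transhydrogenase that makes mitochondrial NADPH (0.61, adjusted p = 0.0139), SLC25A22, a glutamate carrier (0.59, adjusted p = 0.0148), and LDHB, a lactate dehydrogenase subunit (0.49, adjusted p = 0.0354), which is named beyond the limit of 6 genes because it completes the count. After quantile normalisation these 4 had changes under hypoxia of 0.32 to 0.42 and none was called (4.19% of genes were). Over both conditions, 3 of the 4 were called higher on that scale, where 11.9% of genes were. They were SLC25A11 (0.49, adjusted p = 0.0117), NNT (0.29, adjusted p = 0.0113) and LDHB (0.35, adjusted p = 0.00904). On the same scale 4 genes of the list were called lower, where 9.45% of genes were, ACO1 (-0.52) and ACLY (-0.50) among them. As deposited, 4 of the list were called higher over both conditions (22.2%, against 14.9% of genes) and 3 lower (16.7%, against 4.79%).

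PCK2, the mitochondrial phosphoenolpyruvate carboxykinase, was the gene of this list called lower under hypoxia on the deposited values (-0.95, SE 0.19, adjusted p = 0.00334). This was 5.56% of the list, against 1.72% of genes. After quantile normalisation 3 genes of the list were called lower under hypoxia, where 3.62% of all genes were. They were PCK2 (-1.22, adjusted p = 0.0304), ACO1 (-0.50, adjusted p = 0.0316) and the cytosolic aspartate aminotransferase GOT1 (-0.70, adjusted p = 0.0372). PCK2 read 7.83 and 8.54 in VHL- cells under normoxia, 9.22 and 9.33 under hypoxia, 7.46 and 7.72 in VHL+ cells under normoxia, then 8.15 and 8.51 under hypoxia. The VHL- hypoxia arrays were the highest. PCK2 was also the gene called for hypoxia in VHL- cells (1.09, SE 0.19, adjusted p = 0.0335). After quantile normalisation its change was no smaller (1.21) but was not called (adjusted p = 0.540). On that scale 0 clusters of the whole array were called higher for hypoxia in VHL- cells.

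The list of cofactors and regulation had 16 of 19 genes measured. PPARGC1A, a coactivator of mitochondrial biogenesis, read 6.21 and 6.46 in VHL- cells under normoxia, 6.19 and 6.45 under hypoxia, 6.98 and 7.28 in VHL+ cells under normoxia, then 6.64 and 7.02 under hypoxia. It was below the array median on 5 arrays, including all 4 of VHL- cells. The VHL+ arrays lay above all VHL- arrays, with a rise of 0.80 (SE 0.16, adjusted p = 0.00633) under normoxia and of 0.65 (SE 0.12, adjusted p = 0.000269; adjusted p = 0.0360 after quantile normalisation) over both conditions. It was the 1 gene of the list called under normoxia (6.25%, against 3.17% of genes), and after quantile normalisation that change was 0.85 with an adjusted p of 0.0510, so that 0 were called. Under hypoxia 2 were called higher (12.5%, against 14.3% of genes): DHTKD1, a relative of the oxoglutarate decarboxylase that acts in lysine breakdown (0.61, adjusted p = 0.00722), and PDPR, the regulatory subunit of pyruvate dehydrogenase phosphatase (0.46, adjusted p = 0.0382). After quantile normalisation DHTKD1 was still called (0.35, adjusted p = 0.0433) and PDPR was not (0.18, adjusted p = 0.214). LIPT1, a lipoyltransferase that serves the dehydrogenase complexes, was called over both conditions (0.38, adjusted p = 0.0180), and 0 genes of the list were called lower for VHL as deposited.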

How the data were processed

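Total RNA of 786-O cells was hybridised to Affymetrix Human GeneChip 1.0 ST arrays, 2 biological replicates in each of 4 groups. The authors normalised the arrays by RMA (Robust Multichip Average) in Partek Genomic Suite and deposited log2 signals per transcript cluster, which were used here without further transformation. The genome build behind the clusters is not given in the sources used here. All 33297 clusters were tested with limma 3.58.1 in R 4.3.3, from one linear model with a mean for each group (residual degrees of freedom 4, prior 14.0) and another with VHL and oxygen as 2 factors, after a check on simulated data. After quantile normalisation the prior degrees of freedom were 2.82, so that a change of the same size and SE gave a larger p. A call not kept on that scale can therefore go with an unchanged fold change. P-values were adjusted by Benjamini-Hochberg over all clusters, and "called" means an adjusted p under 0.05. Single-symbol clusters numbered 19460, 1754 clusters carried several symbols and 12083 carried none. Each gene was read at its brightest cluster with 1 symbol.

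All 36 members were accounted for, and values on each array are given for members called in at least 1 comparison, for PDK1 to PDK4, SDHA and VHL. From each related list the called genes are named, at most 6 by the smallest p. The members and lists were chosen with earlier results of these data known. The alternatives were quantile normalisation, median centring, a replicate block, the one-way test named in the methods, run here on the 2 compared groups alone (p under 0.005; which groups the authors fitted for each pair of conditions is not given in the sources used here), a fit to the compared groups only, robust estimation with a trend, dim clusters left out, the mean of a gene's clusters and each array left out. Use of the dimmer cluster for SDHC and SDHD was added after seeing the data. Promoter windows came from RefSeq, build GRCh38.p14, cut to the 250 bases before each start.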

Additional observations from a re-analysis of the deposited data

How the results depend on the processing

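The counts of members called for VHL were 2 under normoxia, 11 under hypoxia and 12 over both oxygen conditions. Quantile normalisation gave 4 under normoxia and 6 under hypoxia. Median centring gave 6 under hypoxia, where 849 of all 33297 clusters were called higher and 574 lower. No called member changed direction in any alternative. Of 25 called member results, 16 were kept after either scaling, 24 with a trend and robust estimation or the mean of a gene's clusters, and 23 without dim clusters or with the dimmer cluster of SDHC and SDHD. The compared groups alone gave 1 under normoxia, with 72 clusters called higher and 178 lower, and kept 11 of 13. The methods' one-way test, run on the 2 compared groups alone, kept 0 of the 13 results. At an unadjusted p under 0.005 it called 0 members under normoxia, where 88 clusters were called higher and 200 lower. Under hypoxia it called 2 (PDHX and PDP1), where 368 clusters were called higher and 32 lower. For hypoxia in VHL- cells it called 1 (IDH1, higher), where 7 clusters were called higher and 246 lower. After Benjamini-Hochberg adjustment it called 0 members under normoxia and 0 under hypoxia.

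With each array left out in turn (the lone array of that group being assumed to vary like the others), the counts ran from 0 to 5 under normoxia, from 0 to 14 under hypoxia and from 6 to 18 over both conditions, and stayed at 0 for hypoxia and the interaction. Without VHL+ hypoxia replicate 1, 7 of the 25 results were kept, and without replicate 2, 10. Without VHL- normoxia replicate 1, 1 member was called under normoxia, and without either VHL- hypoxia replicate or VHL+ normoxia replicate 1, 5. With the replicate number as a block, 5 members were called under normoxia (MPC2, DLST and SUCLA2 in addition). In that setting 1170 clusters were called higher and 1348 lower under normoxia. IDH3A was newly called under hypoxia and over both conditions, and all 25 results were kept. Same-numbered arrays of different groups deviated together at r = 0.0503 to 0.605, and the labels do not say what a number shares. With 2 arrays a group, precision is limited by their number.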
